A study of Mus musculus with 19 samples.

Results

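This account describes 40 mouse genes of the cell cycle and of DNA replication in brains after bone marrow transplantation. The genes were taken from a named list of proliferation genes and matched by symbol to the identifiers of the deposited tables. By their known roles, 24 of them act in mitosis, 12 make or copy DNA in S phase, and 4 (Stmn1, Hmgb2, Ccnd1 and Ccne1) belong to neither set. All 40 were among the 13783 genes listed for sorted brain myeloid cells, and 27 were among the 15634 genes listed for whole hippocampus.

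A dividing cell first switches on genes that license replication origins and make deoxynucleotides, under E2F transcription factors, and later the genes that condense and separate chromosomes. Many of the later genes are held down in resting cells by the DREAM complex (E2F4 with p130 and the MuvB core), which binds a promoter element called the cell cycle homology region. MuvB with B-MYB and FOXM1 switches them on in G2 and mitosis. Microglia renew slowly by division inside the brain, whereas macrophages of marrow origin descend from precursors that divide in the marrow and enter the brain from blood.

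All mice had received split-dose total-body irradiation of 1100 cGy and 5000000 T-cell-depleted (TCD) marrow cells. Mice of the graft-versus-host disease (GVHD) groups were also given 500000 splenic T cells, and mice of the TCD control group were not. On day 70, brain cells were sorted into bone marrow-derived macrophages of donor origin from GVHD mice (6 libraries, called donor below), host microglia from GVHD mice (4 libraries) and host microglia from TCD mice (3 libraries). Whole hippocampus was taken on day 80 from 3 GVHD and 3 TCD mice. Strain, sex, age and the sorting gates are not given in the sources used here. No group was left unirradiated or untransplanted, and no donor cells from TCD mice were analysed here, so donor origin and GVHD cannot be told apart in the comparison of donor cells with TCD host microglia. The first of the TCD host libraries is uncertain in its transplant: the title says TCD, while Syn stands in its description, where the other TCD hosts have TCD. The titles also carry an API number, not explained, which is API_183 for donor 1, GVHD host 1 and TCD host 1 and API_197 for the other 10 sorted libraries. Whether libraries of 1 group came from separate mice is not stated, and p-values measure only the spread between these libraries.

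Values are the authors' normalised counts, which are not divided by gene length, so levels are compared between samples and not between genes. An estimated 16673498 to 18546990 reads lay behind each hippocampus library and 7901436 to 35844364 behind each sorted library, so that a value of 1 stood for 16.4 to 18.5 and 8.28 to 33.3 reads. The sorted cells matched their labels: 6 of 7 microglia markers were lower and 6 of 6 markers of marrow-derived brain macrophages were higher in donor cells than in either host group. Summed neutrophil markers (8 of 11 listed) ran from 21.0 to 608 in donor libraries, highest in donor 1, from 0.446 to 19.7 in GVHD host libraries and from 1.81 to 111 in TCD host libraries, highest in TCD host 1. Summed T cell markers (7 of 9 listed) stayed at or below 31.6, the level of donor 1, and summed erythroid markers (4 of 6 listed) were highest in donor 2 at 147 and GVHD host 1 at 49.2, with the other sorted libraries at 5.61 or below. Oligodendrocyte precursor and choroid plexus markers were not among the genes listed for sorted cells. The part of other cell types in the results was not tested.

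Promoters were read first, because the mitosis and replication members are known to be controlled through different elements. RefSeq promoters on GRCm38.p6, 250 bases before to 50 bases after a transcription start, were found for 32 of the 40 genes. Ccna2, Aurkb, Kif20a, Tpx2, Mcm4, Stmn1, Ccnd1 and Gins2 had no entry. Prc1 and Mcm7 each had 2 promoters, so the 21 mitosis promoters came from 20 genes and the 11 replication promoters from 10. Both Prc1 promoters, which overlap, held the homology region counted below, and both Mcm7 promoters the E2F core. On both strands, the cell cycle homology region (TTTGAA or TTCGAA) was matched in 17 of 21 promoters of mitosis members (81.0%), against 2 of 11 promoters of replication members (18.2%) and 19.2% of the 32851 promoters of the table. A CCAAT box (CCAAT) accompanied the homology region in each of those 17 mitosis promoters, while 7.52% of all promoters held both. The E2F core (TTCCCGC or TTCGCGC or TTGCCGC or TTGGCGC) showed the opposite split: 7 of 11 promoters of replication members (63.6%), 3 of 21 of mitosis members (14.3%) and 9.57% of all promoters. The CCAAT box on its own did not separate the sets, with 90.5% of mitosis and 81.8% of replication promoters against 37.4% of all. Matches of different motifs overlapped in 2 mitosis promoters and 1 replication promoter. Promoters of genes listed in the sorted-cell table held the homology region in 14.5% and the E2F core in 16.2%. These are letter matches and not measured binding. The promoters below, cut to 20 bases after the start, are shown because 3 belong to mitosis members that were lower in donor cells and 3 to replication members that held E2F cores. Capitals mark every match to the 3 motifs that lies within the stretch shown.
Cdk1 (chr10:69352893-69353162, minus strand): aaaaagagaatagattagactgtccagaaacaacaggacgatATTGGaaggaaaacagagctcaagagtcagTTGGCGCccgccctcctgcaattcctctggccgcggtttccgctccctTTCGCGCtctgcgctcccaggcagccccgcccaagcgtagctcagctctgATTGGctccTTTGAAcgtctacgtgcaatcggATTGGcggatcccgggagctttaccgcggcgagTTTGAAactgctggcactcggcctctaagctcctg
Cenpf (chr1:189688067-189688336, minus strand): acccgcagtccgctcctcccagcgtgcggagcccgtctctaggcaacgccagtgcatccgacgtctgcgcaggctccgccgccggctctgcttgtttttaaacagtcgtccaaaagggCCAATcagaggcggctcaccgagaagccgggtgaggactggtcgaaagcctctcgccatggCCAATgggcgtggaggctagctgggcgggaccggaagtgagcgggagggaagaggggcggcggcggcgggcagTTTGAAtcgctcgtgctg
Prc1 (chr7:80294201-80294470, plus strand): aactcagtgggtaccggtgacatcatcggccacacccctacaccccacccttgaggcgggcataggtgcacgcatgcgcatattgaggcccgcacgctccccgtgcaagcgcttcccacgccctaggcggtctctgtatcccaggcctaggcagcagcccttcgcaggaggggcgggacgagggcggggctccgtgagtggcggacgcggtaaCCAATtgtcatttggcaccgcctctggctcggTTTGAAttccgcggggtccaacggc
Mcm5 (chr8:75109259-75109528, plus strand): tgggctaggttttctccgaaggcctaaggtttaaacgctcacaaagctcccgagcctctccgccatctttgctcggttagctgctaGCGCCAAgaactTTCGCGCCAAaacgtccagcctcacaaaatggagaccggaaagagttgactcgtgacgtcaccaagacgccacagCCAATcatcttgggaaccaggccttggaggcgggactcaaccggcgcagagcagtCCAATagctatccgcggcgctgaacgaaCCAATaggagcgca
Mcm6 (chr1:128359686-128359955, minus strand): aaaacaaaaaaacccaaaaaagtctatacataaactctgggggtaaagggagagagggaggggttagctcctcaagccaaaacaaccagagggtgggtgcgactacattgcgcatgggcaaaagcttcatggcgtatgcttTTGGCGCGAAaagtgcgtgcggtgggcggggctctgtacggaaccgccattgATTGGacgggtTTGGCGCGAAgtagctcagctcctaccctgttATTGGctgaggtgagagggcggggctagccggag
Rrm2 (chr12:24708004-24708273, plus strand): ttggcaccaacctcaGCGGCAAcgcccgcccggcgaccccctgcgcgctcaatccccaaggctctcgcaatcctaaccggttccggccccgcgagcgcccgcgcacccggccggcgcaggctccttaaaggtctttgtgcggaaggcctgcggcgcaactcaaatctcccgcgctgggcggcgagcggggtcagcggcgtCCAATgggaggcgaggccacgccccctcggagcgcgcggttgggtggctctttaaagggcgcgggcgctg

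In Cdk1 the homology region nearest the start began 15 bases before it, in Prc1 5 bases before it, and in Cenpf 3 bases after it. The Cdk1 promoter also held a pair of E2F cores, 178 and 130 bases before the start. Mcm5 and Mcm6 each held E2F matches that overlapped each other on opposite strands. Among replication members, Tyms and Tk1 held none of the 3 motifs in the window, nor did the mitosis members Birc5 and Nusap1.

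**Figure D1:**
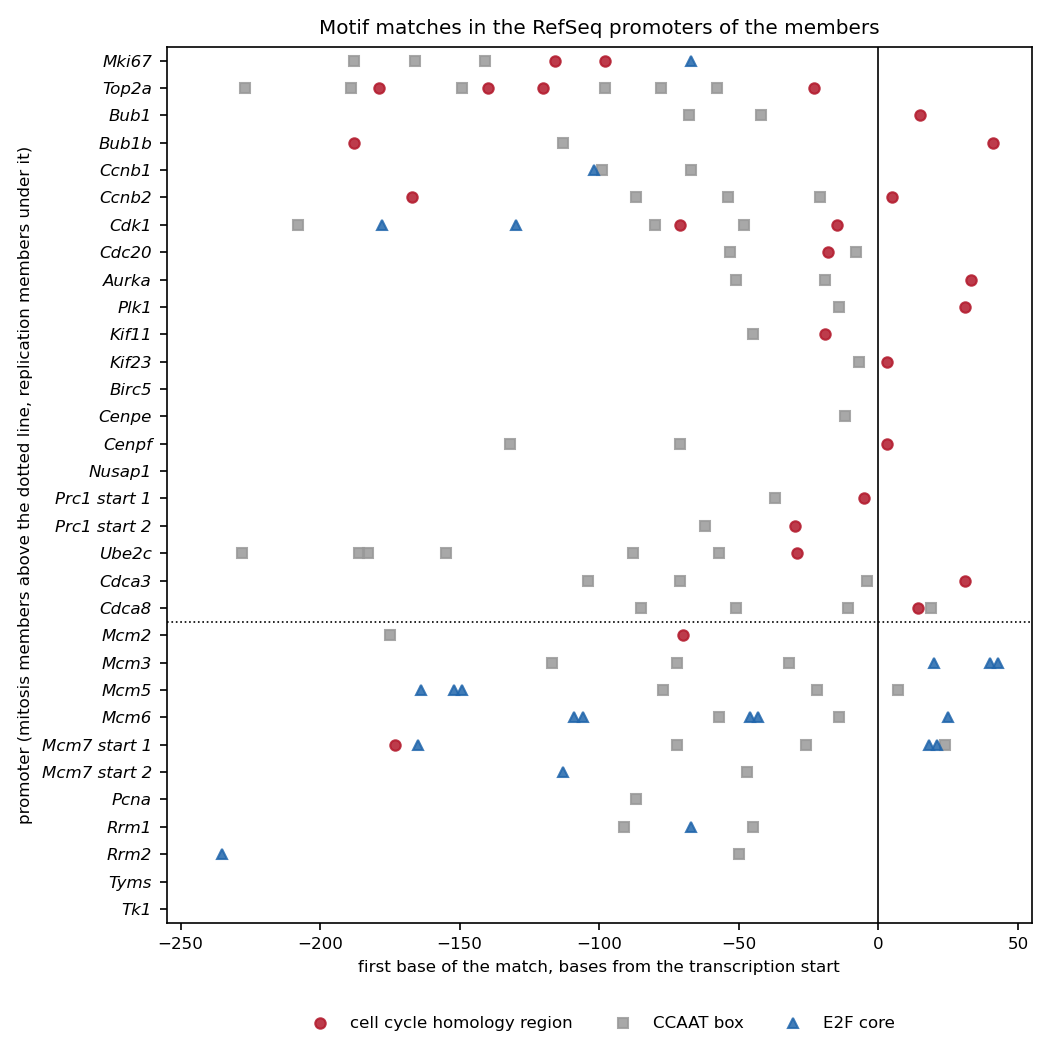
Positions of motif matches in RefSeq promoters of mitosis members (above the dotted line) and replication members (under it). The x axis is the distance in bases of the first base of a match from the transcription start, and each row is 1 promoter. Prc1 and Mcm7 have more than 1 row. Circles for the cell cycle homology region gather in the upper rows, in 17 of 21 promoters, and triangles for the E2F core in the lower rows, in 7 of 11.

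Across the 13 sorted libraries most mitosis members had their lowest mean in donor macrophages and their highest in TCD host microglia. The donor mean was the lowest of the 3 group means for 20 of 24 mitosis members, and the TCD host mean was the highest for 21 of 24. The exceptions with a lowest mean in GVHD hosts were Bub1b, Aurka, Aurkb and Kif23. Among replication members the donor mean was lowest for 5 of 12 and highest for 4 of 12, and the TCD host mean was highest for 7 of 12.

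Libraries of 1 group differed widely in the mitosis members. Each gene's log2(value + 1) was centred on its mean over the 13 libraries, and the median over the 24 mitosis members was taken per library. It was 0.54, 0.68 and 0.16 in TCD hosts 1 to 3, and -0.10, 0.42, 0.53 and -0.63 in GVHD hosts 1 to 4. In donors 1 to 6 it was -0.43, 0.16, -0.02, 0.02, -0.60 and -0.71. Donors 1, 5 and 6 and GVHD host 4 were low, with 3, 1, 1 and 1 of 24 mitosis members above their own mean, while GVHD hosts 2 and 3 and TCD hosts 1 and 2 each had 23 of 24 above it. The same median over the 12 replication members ran only from -0.26 in GVHD host 4 to 0.40 in TCD host 1. In bulk libraries, fewer dividing cells and less RNA per dividing cell cannot be told apart. GVHD host 4 and TCD host 3 held the fewest estimated reads, 8455353 and 7901436. Donor 2, the donor with the highest median over mitosis members, was also the library with the most erythroid marker signal, and the part of those cells was not tested.

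**Figure D2:**
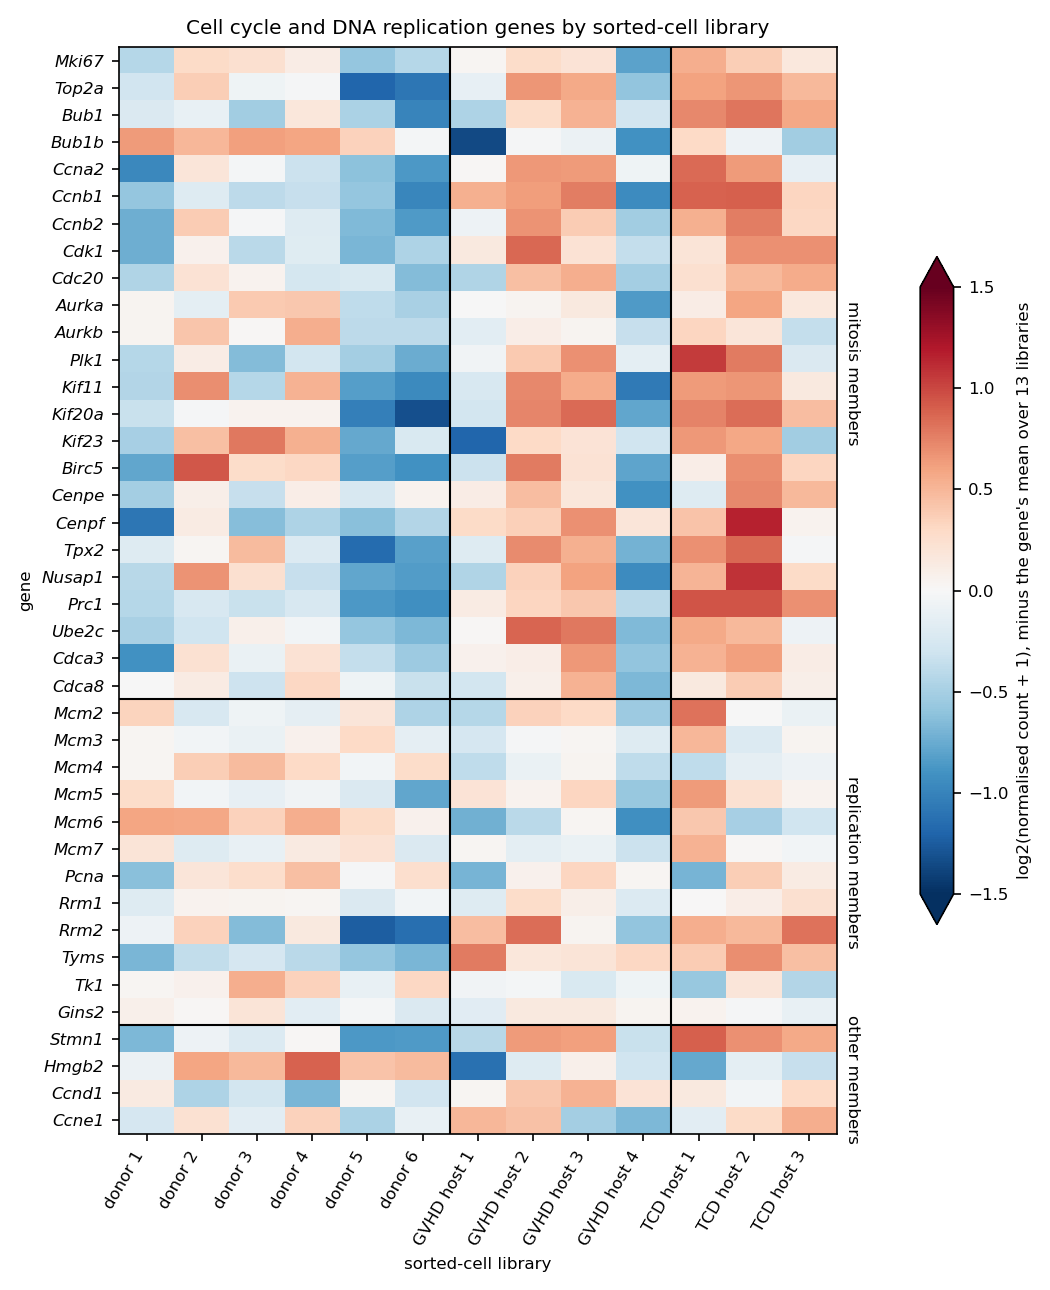
Heat map of the 40 genes (rows, grouped as mitosis, replication and other members) in 13 sorted libraries (columns, grouped as donor, GVHD host and TCD host). Colour gives log2(normalised count + 1) minus the gene's mean over the 13 libraries; mitosis rows are mostly blue in donors 1, 5 and 6 and GVHD host 4 and mostly red in GVHD hosts 2 and 3 and the TCD hosts, and replication rows vary less.

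Donor macrophages were compared with TCD host microglia, cells from different mice that differ in origin and in transplant. Of 40 tested genes 12 were lower and 2 higher in donor cells (limma, adjusted p under 0.05 over all 13086 tested genes), where 18.6% of all tested genes were lower and 18.4% higher. Of the mitosis members 10 of 24 were lower (41.7%) and 0 higher. At an unadjusted p under 0.05, 13 were lower and 0 higher, beside 2952 lower and 2894 higher of all 13086 tested genes. Of the replication members 1 of 12 was lower and 1 higher. The median log2 fold change was -0.78 over the mitosis members, -0.09 over the replication members and -0.006 over all tested genes, and 22 of 24 mitosis members had a negative fold change against 50.5% of all tested genes. Leaving out 1 library gave 8 to 16 called members: 8 without TCD host 2, and 9 without donor 1 or without TCD host 1, whose transplant is uncertain. The mitosis members lower then numbered 4 without TCD host 2, 5 without donor 1, 5 without TCD host 1 and 6 without donor 6, with 0 higher in each case. Within the 10 API_197 libraries 8 members were called, 6 of them lower, and 4 of those were mitosis members. The share of the 40 genes that was lower came down to the background in some of these settings: 15% against 15% of all tested genes without TCD host 2, 17.5% against 16.7% without TCD host 1, and 15% against 16.6% within the API_197 libraries. The 4 of 24 mitosis members lower without TCD host 2, and likewise within the API_197 libraries, also lay near those shares of all tested genes.

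Donor macrophages were then compared with host microglia of GVHD mice. Some libraries of these groups carry the same API number and the same number in their descriptions. Whether they came from the same mice is not stated, and the main fit treats them as unpaired. Here 4 of 40 genes were higher and 6 lower in donor cells, against 19.4% and 19.2% of all tested genes, so the share called was under the background in both directions in this fit. The lower share was above it in other fits. It was 25% of the 40 genes against 17.4% of all tested genes under a replicate block by the number in the descriptions, which left out donors 2 and 4. Without GVHD host 4 it was 22.5% against 17.1%. Mitosis members gave 1 higher and 4 lower of 24, with a median log2 fold change of -0.35, and replication members 2 higher and 1 lower of 12, with a median of 0.06, against 0.04 over all tested genes. Without GVHD host 2, and likewise without GVHD host 3, 6 members were called, and without GVHD host 4, 12. Without GVHD host 2 or 3, 5% of the 40 genes were lower, against 17.2% and 17.1% of all tested genes. The mitosis members lower, of 24, numbered 1 without donor 1, donor 6 or any of GVHD hosts 1 to 3, 2 without donor 5, and 6 without GVHD host 4. In these fits 17.1% to 20.3% of all tested genes were lower. Within the API_197 libraries 7 members were called, 3 of them lower (7.50%, against 17.3% of all tested genes) and 4 higher (10%, against 16.7%). Both comparisons use the same 6 donor libraries, so their values stand side by side in what follows and are not independent. Groups did not overlap for 12 of 40 members against TCD hosts and for 3 of 40 against GVHD hosts. The same held for 29.5% and 27.9% of all tested genes, so a lack of overlap does not mark the members out.

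Cdk1 is the kinase that drives entry into mitosis with A- and B-type cyclins. Its normalised count ran from 3.45 to 6.72 in donors (median 4.47), was 7.18, 12.5, 7.58 and 4.77 in GVHD hosts 1 to 4, and 7.48, 10.9 and 10.9 in TCD hosts 1 to 3. All donors lay below all TCD hosts, and only GVHD host 4 fell within the donor range. The log2 fold change of donor cells was -0.98 ± 0.24 (SE, adjusted p = 0.00693) against TCD hosts and -0.64 ± 0.22 (adjusted p = 0.0353) against GVHD hosts. The call against GVHD hosts was lost in 11 of 22 alternative settings, with the adjusted p at most 0.137.

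Ccna2 encodes cyclin A2, which partners CDK2 in S phase and CDK1 in G2. It ran from 1.46 to 4.44 in donors (median 2.48), was 3.85, 6.50, 6.48 and 3.58 in GVHD hosts 1 to 4, and 7.63, 6.44 and 3.40 in TCD hosts 1 to 3. The groups overlapped, and it was lower in donors, with a log2 fold change of -0.92 ± 0.31 (adjusted p = 0.0319) against TCD hosts and -0.76 ± 0.28 (adjusted p = 0.0457) against GVHD hosts. These calls were lost in 7 of 20 and 12 of 22 alternatives, with an adjusted p of up to 0.211 and 0.131.

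The B-type cyclins activate CDK1 at mitosis. Ccnb1 ran from 1.53 to 3.35 in donors (median 2.58), was 6.20, 6.69, 7.48 and 1.59 in GVHD hosts 1 to 4, and 8.19, 8.32 and 5.27 in TCD hosts 1 to 3. Donors lay below all TCD hosts and below 3 of 4 GVHD hosts, GVHD host 4 being at the donor level. The log2 fold change was -1.19 ± 0.34 (adjusted p = 0.0145) against TCD hosts and -0.74 ± 0.31 (adjusted p = 0.0735) against GVHD hosts, where the test was passed without GVHD host 4. The call against TCD hosts was lost in 2 of 20 alternatives, with the adjusted p at most 0.0817. Ccnb2 ran from 1.87 to 5.75 in donors (median 2.92), was 3.90, 7.27, 5.74 and 2.61 in GVHD hosts 1 to 4, and 6.49, 7.79 and 5.43 in TCD hosts 1 to 3. Donor 2 exceeded TCD host 3, and the gene passed only against TCD hosts (-0.92 ± 0.31, adjusted p = 0.0316). That call was lost in 6 of 20 alternatives, with the adjusted p at most 0.134. Named pseudogenes of both cyclins are listed in the sorted-cell table, so reads shared with them make these values less certain.

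Bub1 and Bub1b, both of the mitotic checkpoint, were called in different comparisons and opposite directions. Bub1 encodes a checkpoint kinase at kinetochores; its level ran from 0.312 to 1.92 in donors, was 0.897 to 2.74 in GVHD hosts, and 3.29, 3.56 and 2.90 in TCD hosts 1 to 3. All 10 libraries of GVHD mice lay below all TCD hosts, and the donor fold change was -1.08 ± 0.27 (adjusted p = 0.00658) on the log2 scale against TCD hosts. These are low values, with 4 estimated reads behind the lowest of them. Bub1b encodes BUBR1, which inhibits the anaphase-promoting complex until chromosomes are attached. It ran from 3.97 to 6.90 in donors (median 6.40), was 0.975, 3.98, 3.76 and 1.70 in GVHD hosts 1 to 4, and 5.23, 3.80 and 2.54 in TCD hosts 1 to 3. It was the only mitosis member higher in donors, by 1.03 ± 0.27 (adjusted p = 0.00967) against GVHD hosts, and kept that call in all 22 alternatives. Against TCD hosts the value was 0.53 ± 0.30 (adjusted p = 0.201).

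Cdc20 encodes the activator of the anaphase-promoting complex and Ube2c its ubiquitin-conjugating enzyme. Cdc20 ran from 2.88 to 6.07 in donors (median 4.12), was 3.43, 7.27, 7.84 and 3.26 in GVHD hosts 1 to 4, and 6.18, 7.48 and 7.96 in TCD hosts 1 to 3. Donors did not overlap TCD hosts, and the fold change was -0.71 ± 0.25 (adjusted p = 0.0394). That call was lost in 9 of 20 alternatives. Ube2c passed neither test, with -0.67 ± 0.32 against TCD hosts (adjusted p = 0.131).

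Among the mitotic kinases, Plk1, which controls centrosomes and mitotic entry, was lower in donors than in TCD hosts. It ran from 0.857 to 2.37 in donors (median 1.26), was 2.02, 3.10, 4.01 and 1.82 in GVHD hosts 1 to 4, and 5.45, 4.35 and 1.69 in TCD hosts 1 to 3. TCD host 3 lay inside the donor range. The log2 fold change was -0.93 ± 0.30 (adjusted p = 0.0249), and leaving out donor 1, TCD host 1 or TCD host 2 ended the call. Aurka, the kinase of spindle poles, and Aurkb, the kinase of the chromosomal passenger complex, passed neither test, and Aurkb was close to equal in donors (4.64 ± 1.53) and TCD hosts (4.59 ± 1.29). The passenger complex partners Birc5 (survivin) and Cdca8 (borealin) passed neither test either, at -0.63 ± 0.42 and -0.27 ± 0.24 on the log2 scale against TCD hosts.

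Prc1 crosslinks the microtubules of the central spindle. It ran from 2.73 to 4.99 in donors (median 4.42), was 6.67, 7.84, 8.35 and 4.31 in GVHD hosts 1 to 4, and 12.5, 12.6 and 10.4 in TCD hosts 1 to 3. Donors and GVHD hosts both lay wholly below TCD hosts, and GVHD host 4 lay inside the donor range. The log2 fold change of donors was -1.35 ± 0.22 (adjusted p = 0.000426) against TCD hosts, kept in all 20 alternatives, and -0.61 ± 0.20 (adjusted p = 0.0314) against GVHD hosts, lost in 7 of 22.

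Cenpf encodes a large kinetochore protein made in G2. It ran from 2.57 to 7.26 in donors (median 4.20), was 8.27, 8.72, 11.2 and 7.60 in GVHD hosts 1 to 4, and 9.17, 15.9 and 6.88 in TCD hosts 1 to 3. Donors did not overlap GVHD hosts, and donor 2 exceeded TCD host 3. The fold change was -0.93 ± 0.23 (adjusted p = 0.00647) against GVHD hosts and -1.12 ± 0.26 (adjusted p = 0.00387) against TCD hosts, and both calls were kept in every alternative. Cenpe, a kinetochore motor, passed neither test (-0.53 ± 0.28 against TCD hosts, adjusted p = 0.169).

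Of the other spindle motors and spindle proteins only Kif20a, a kinesin of cytokinesis, passed a test. It ran from 1.10 to 4.43 in donors (median 3.64), was 3.32, 7.69, 8.38 and 2.05 in GVHD hosts 1 to 4, and 7.73, 8.34 and 6.17 in TCD hosts 1 to 3. Donors and TCD hosts did not overlap (log2 fold change -1.13 ± 0.41, adjusted p = 0.0452). Leaving out donor 1, 5 or 6, or any of the 3 TCD hosts, ended the call. Kif11, Kif23, Tpx2, Nusap1 and Cdca3 passed neither test, and their fold changes against TCD hosts ran from -0.92 (Nusap1) to -0.27 (Kif23). Mki67, the gene of the proliferation antigen Ki-67, ran from 6.87 to 13.4 in donors, was 11.1, 13.3, 12.6 and 5.79 in GVHD hosts 1 to 4, and 16.2, 14.2 and 12.2 in TCD hosts 1 to 3, with fold changes of -0.06 ± 0.25 and -0.49 ± 0.28 that passed neither test. Top2a, the topoisomerase that untangles chromosomes, ran from 6.39 to 20.8 in donors, was 14.4, 25.6, 24.1 and 10.2 in GVHD hosts 1 to 4, and ran from 22.7 to 25.6 in TCD hosts. Donors and TCD hosts did not overlap for Top2a, and the adjusted p was 0.0542.

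**Figure D3:**
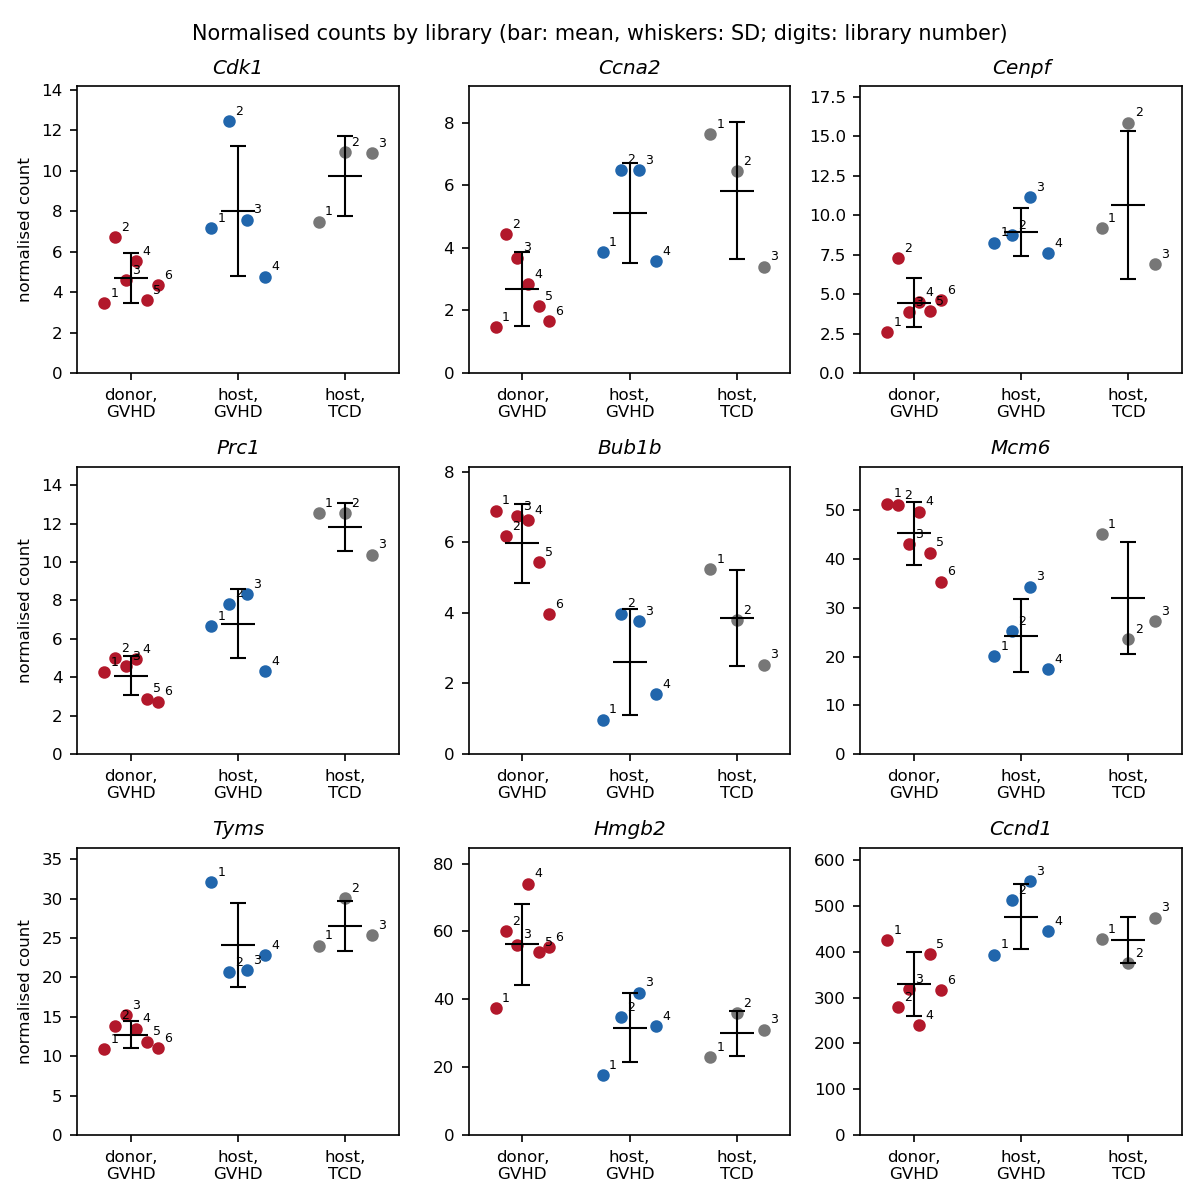
Normalised counts of 9 genes in each sorted library, with the mean (bar) and SD (whiskers) of donor macrophages (n = 6), GVHD host microglia (n = 4) and TCD host microglia (n = 3); digits are library numbers and each y axis starts at 0. Cdk1, Ccna2, Cenpf, Prc1, Tyms and Ccnd1 have their lowest mean in donors, and Bub1b, Mcm6 and Hmgb2 their highest.

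The replication members start with the MCM helicase, whose subunits are loaded on origins as a ring. Its subunits did not move together. Mcm6 ran from 35.4 to 51.4 in donors (median 46.4), was 20.1, 25.2, 34.4 and 17.4 in GVHD hosts 1 to 4, and 45.2, 23.6 and 27.3 in TCD hosts 1 to 3. All donors lay above all GVHD hosts, and TCD host 1 stood inside the donor range. The log2 fold change was 0.93 ± 0.20 (adjusted p = 0.00286) against GVHD hosts, kept in all 22 alternatives, and 0.57 ± 0.22 (adjusted p = 0.0656) against TCD hosts, where it passed without TCD host 1 and in 2 other alternatives (adjusted p from 0.0172 to 0.3 over the 20).

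Mcm4 ran from 35.4 to 51.0 in donors (median 44.5), was 27.7, 33.8, 37.4 and 27.6 in GVHD hosts 1 to 4, and 27.6, 33.0 and 34.5 in TCD hosts 1 to 3. Donors lay above all TCD hosts and overlapped GVHD host 3. Donor cells were higher by 0.42 ± 0.12 (adjusted p = 0.0118) against GVHD hosts and by 0.39 ± 0.13 (adjusted p = 0.0301) against TCD hosts. These calls were lost in 3 of 22 and in 8 of 20 alternatives. Mcm2, Mcm3, Mcm5 and Mcm7 passed neither test. Their fold changes ran from -0.12 (Mcm5) to 0.17 (Mcm7) against GVHD hosts and from -0.39 (Mcm5) to -0.07 (Mcm3) against TCD hosts. Mcm2 ran from 9.82 to 17.8 in donors (median 12.96), was 10.1, 17.9, 17.3 and 9.19 in GVHD hosts 1 to 4, and 25.1, 13.9 and 12.9 in TCD hosts 1 to 3. Mcm5 ran from 6.78 to 15.2 in donors (median 11.6), was 14.5, 12.9, 15.7 and 8.06 in GVHD hosts 1 to 4, and 19.9, 14.7 and 12.9 in TCD hosts 1 to 3. In TCD host 1 both were at their highest of the 13 libraries, as were Mcm3 at 100.3 and Mcm7 at 27.1.

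The enzymes of deoxynucleotide supply split as well. Tyms encodes thymidylate synthase, which makes dTMP. It ran from 10.9 to 15.2 in donors (median 12.7), was 32.1, 20.7, 21.0 and 22.8 in GVHD hosts 1 to 4, and 24.1, 30.1 and 25.4 in TCD hosts 1 to 3. No donor library reached any host library, and the fold change was -0.86 ± 0.15 (adjusted p = 0.000587) against GVHD hosts and -0.999 ± 0.166 (adjusted p = 0.000421) against TCD hosts, kept in every alternative. Tk1, the thymidine kinase that makes dTMP by salvage, had means of 14.6 ± 2.65 (SD, n = 6) in donors, 11.7 ± 0.766 (n = 4) in GVHD hosts and 10.4 ± 3.37 (n = 3) in TCD hosts, and passed neither test (0.44 ± 0.18 against TCD hosts, adjusted p = 0.0799).

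Rrm1 and Rrm2 encode the large and the small subunit of ribonucleotide reductase, of which the small one is made in S phase. Rrm2 ran from 2.52 to 9.54 in donors (median 5.61), was 10.5, 13.9, 7.52 and 4.54 in GVHD hosts 1 to 4, and 11.1, 10.6 and 13.6 in TCD hosts 1 to 3. Donors lay below all TCD hosts, but the adjusted p was 0.0581 (-1.01 ± 0.39) and against GVHD hosts 0.198 (-0.60 ± 0.35). Rrm1 varied little, from 36.8 to 52.3 over the 13 libraries. Pcna, the sliding clamp of DNA polymerases, had fold changes of 0.08 ± 0.10 and 0.01 ± 0.11, and Gins2, a subunit of the replicative helicase complex, -0.06 ± 0.12 and 0.00 ± 0.13, against GVHD and TCD hosts. A named pseudogene of Pcna is listed in both tables, so its values are less certain. Pcna was low in the 3 API_183 libraries, at 45.4 in donor 1, 43.2 in GVHD host 1 and 43.4 in TCD host 1, and 70.1 to 97.0 in the other 10.

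Of the remaining 4 genes, Hmgb2, a chromatin protein abundant in dividing and in immature blood cells, was higher in donors. It ran from 37.4 to 74.1 in donors (median 55.8), was 17.7, 34.7, 42.0 and 32.1 in GVHD hosts 1 to 4, and 22.9, 35.9 and 31.1 in TCD hosts 1 to 3. Donor 1 lay below GVHD host 3, and donors did not overlap TCD hosts. Donor 1, the lowest donor for Hmgb2, had the highest sum of neutrophil markers, and the part of those cells was not tested. The fold change was 0.78 ± 0.12 (adjusted p = 0.000268) and 0.76 ± 0.14 (adjusted p = 0.000795), kept in every alternative.

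Stmn1 encodes stathmin, which destabilises microtubules and is released from that role by phosphorylation in mitosis. It ran from 11.6 to 22.1 in donors (median 16.1), was 16.2, 34.7, 34.0 and 17.1 in GVHD hosts 1 to 4, and 41.5, 35.7 and 32.8 in TCD hosts 1 to 3. Donors did not overlap TCD hosts (-1.20 ± 0.28, adjusted p = 0.0045), and GVHD hosts 1 and 4 lay inside the donor range (-0.59 ± 0.25, adjusted p = 0.0833). Ccnd1 encodes cyclin D1, which couples growth signals to CDK4 and CDK6 in G1. It ran from 239.7 to 426 in donors (median 317), was 394, 513, 554 and 445 in GVHD hosts 1 to 4, and 427, 375 and 475 in TCD hosts 1 to 3, and was lower in donors than in GVHD hosts (-0.54 ± 0.16, adjusted p = 0.0175) but did not pass against TCD hosts (-0.38 ± 0.18, adjusted p = 0.117). The Ccnd1 call was lost in 3 of 22 alternatives, among them without GVHD host 2 and without GVHD host 3. Ccne1, cyclin E1, stayed at 2.66 or below in all 13 libraries and passed neither test.

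The description fields carry a second number. Deviations of donor and GVHD host libraries with the same description number correlated at 0.39, 0.36, 0.17 and 0.28. Donors and TCD hosts with the same title number gave 0.58, 0.31 and 0.41 though from different mice, so such correlations do not show pairing. With the description number as a replicate block, only libraries whose number occurred in both groups were kept, which left out donors 2 and 4. These donors had the highest donor medians over mitosis members, 0.16 and 0.02, so block and missing libraries cannot be told apart. In that fit 13 members were called between donors and GVHD hosts, 10 of them lower (25%, against 17.4% of all tested genes) and 3 higher (7.50%, against 19.3%). Ccnb1, Ccnb2, Plk1, Rrm2 and Stmn1 then joined the lower genes, and Mcm4 and Ccnd1 lost their calls. Donors and TCD hosts came from different mice, so the numbers in their titles do not pair cells of the same mouse. Between them, a replicate block by these numbers kept only donors 1 to 3 of the donor libraries. It gave 11 called members, 9 of them lower (22.5%, against 17.1% of all tested genes). Ccna2, Ccnb2, Cdc20 and Plk1 lost their calls under it and Top2a gained one.

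**Figure D4:**
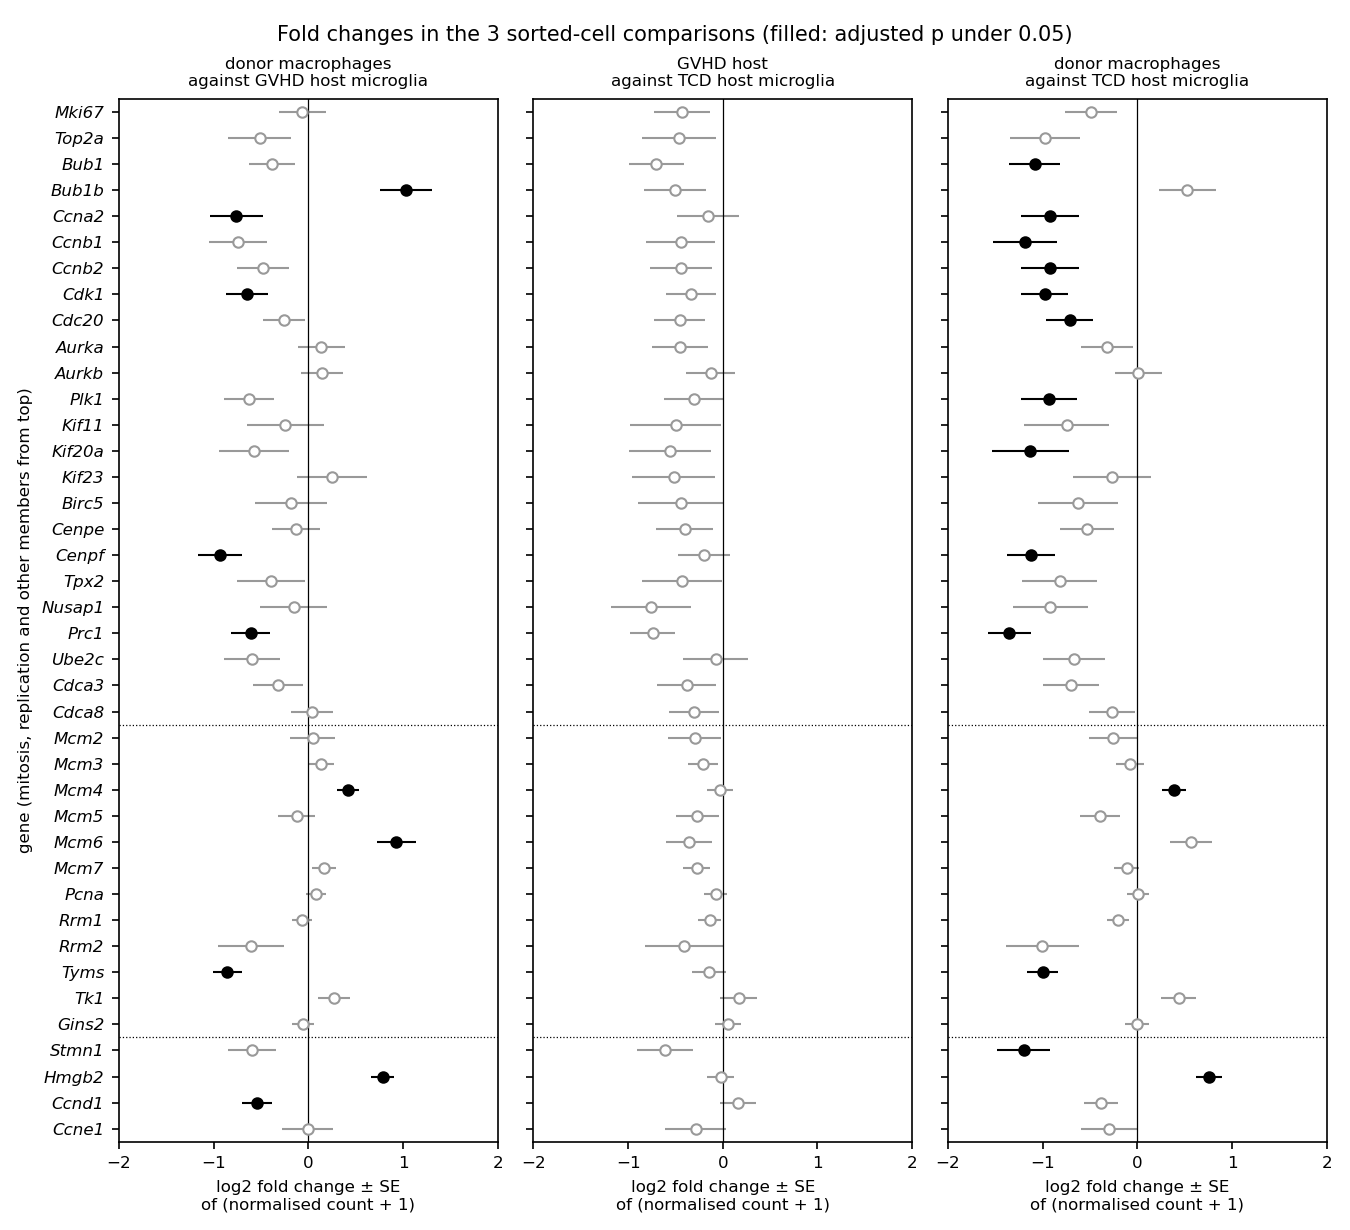
Log2 fold changes of (normalised count + 1), with SE, of the 40 genes in the 3 comparisons of sorted cells; filled points have an adjusted p under 0.05 and dotted lines part mitosis, replication and other members. Against TCD hosts 22 of 24 mitosis points lie left of 0 and 10 are filled, while replication points lie on both sides; the middle panel has no filled point and 37 of 40 points left of 0.

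Host microglia of GVHD mice were compared with host microglia of TCD mice, the comparison that asks about disease within cells of 1 origin. No member was called by limma, where 0.0917% of all tested genes were higher and 0.0153% lower in GVHD hosts. Of 40 members 2, Prc1 and Bub1, had an unadjusted p under 0.05, as did 897 of all 13086 tested genes. The direction was shared: 24 of 24 mitosis members and 10 of 12 replication members had a negative fold change, against 55.1% of all tested genes. The medians were -0.44 over mitosis members, -0.18 over replication members and -0.03 over all tested genes. In neither gene did the groups overlap, which held for 6.55% of all tested genes, and the log2 values were -0.74 ± 0.24 for Prc1 (adjusted p = 0.432) and -0.70 ± 0.29 for Bub1 (adjusted p = 0.679). The members share all 7 libraries, so their signs are not independent. Without GVHD host 4 the mitosis median was -0.17, with 23 of 24 negative, without TCD host 1 21 of 24 were negative, and within the API_197 libraries 19 of 24. With 4 libraries against 3, standard errors of single mitosis members ran from 0.24 (Prc1) to 0.48 (Kif11).

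Genes around the members were read from 5 lists of cell cycle regulators and further replication and mitosis genes. Their counts stand beside the shares of all tested genes called, 19.4% higher and 19.2% lower against GVHD hosts and 18.4% higher and 18.6% lower against TCD hosts. Of 39 further replication genes tested, 10 were higher (25.6%) and 2 lower (5.13%) in donors than in GVHD hosts, and 5 higher (12.8%) and 2 lower (5.13%) than in TCD hosts, with medians of 0.17 and 0.04. The lower share was under the background in both comparisons, and the higher share above it against GVHD hosts and under it against TCD hosts. Pola1, the catalytic subunit of DNA polymerase alpha, was higher by 0.80 ± 0.14 and 1.06 ± 0.16 on the log2 scale against GVHD and TCD hosts. Rfc5 and Rfc2, subunits of the clamp loader, were higher by 0.63 ± 0.11 and 0.41 ± 0.10 against GVHD hosts and by 0.66 ± 0.12 and 0.65 ± 0.11 against TCD hosts. Dut, which removes dUTP, was higher by 1.21 ± 0.16 and 0.82 ± 0.18. Pole2, a subunit of DNA polymerase epsilon, was higher by 0.63 ± 0.19 and 1.03 ± 0.21, at mean values of 2.92 in donors, 1.54 in GVHD hosts and 1.01 in TCD hosts. Against GVHD hosts, 7 of these genes were called without donor 1 and 6 without GVHD host 1.

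Of 36 further mitosis genes tested, 7 were higher (19.4%) and 5 lower (13.9%) in donors than in GVHD hosts, and 5 higher (13.9%) and 10 lower (27.8%) than in TCD hosts, with medians of -0.14 and -0.38. Only the share lower than in TCD hosts exceeded that of all tested genes. Ncaph, a condensin subunit, was lower, at -1.71 ± 0.11 and -1.72 ± 0.12, whereas Smc4, another condensin subunit, was higher by 1.15 ± 0.15 and 1.08 ± 0.16. Pttg1 (securin) was higher than in GVHD hosts by 1.68 ± 0.28. Hmmr, a spindle protein, was lower, at -1.30 ± 0.24 and -1.79 ± 0.26, and Pbk, a mitotic kinase, at -1.04 ± 0.32 and -1.86 ± 0.35. Without TCD host 2, 7 of these genes were called against TCD hosts, 3 of them lower. With the filter of 5 in 3 libraries 9 were called against TCD hosts, 5 higher and 4 lower. In that fit 18.5% of all tested genes were higher and 18.8% lower, and the number of these genes that passed the filter is not given here.

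The inhibitors of cyclin-dependent kinases split evenly, with 3 higher and 3 lower of 6 in both comparisons (50% each way, against 18.4% to 19.4% of all tested genes). Cdkn1a, which encodes p21 and is a known target of p53, ran from 49.7 to 363 in donors (median 129), was 406, 525, 1359 and 546 in GVHD hosts 1 to 4, and 437, 745 and 875 in TCD hosts 1 to 3. No donor library reached a host library, and the fold change was -2.41 ± 0.41 (adjusted p = 0.000493) and -2.57 ± 0.46 (adjusted p = 0.000715). Cdkn2b and Cdkn2a, of the INK4 locus, were also lower in donors, at -1.44 ± 0.19 and -1.24 ± 0.24 against GVHD hosts. Cdkn2a was under 1 in all 6 donor libraries and was tested only through its host values, so the filter favoured a lower call. It is among the 3 lower genes counted in each comparison. Cdkn1b, which encodes p27, was higher by 0.65 ± 0.11 and 0.82 ± 0.13. Without TCD host 3, 3 of the 6 were called against TCD hosts.

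Among 17 tested genes of E2F, pocket and DREAM or MuvB proteins, 4 were higher (23.5%) and 3 lower (17.6%) in donors than in GVHD hosts, and 4 higher (23.5%) and 5 lower (29.4%) than in TCD hosts. E2f1, an activator of replication genes, was higher by 0.80 ± 0.19 and 1.28 ± 0.21, and Rb1, the retinoblastoma protein that binds E2F factors, by 0.92 ± 0.14 and 0.89 ± 0.16. E2f3 was lower, at -1.53 ± 0.15 and -1.56 ± 0.17. Foxm1, the activator of mitosis genes, had means of 0.402 in donors, 1.39 in GVHD hosts and 1.40 in TCD hosts (-0.76 ± 0.13 and -0.75 ± 0.15). It was under 1 in all 6 donor libraries and entered the test only through its host values, so the filter favoured a lower call, and it is given as a description. The 3 and 5 lower genes counted above include Foxm1. Leaving out donor 1, donor 2, donor 6 or GVHD host 3 left 4 called genes of this list against GVHD hosts, and leaving out TCD host 3 left 5 against TCD hosts.

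Of 10 tested genes of other cyclins and CDKs, 2 were higher (20%) and 3 lower (30%) in donors than in GVHD hosts, and 2 higher and 2 lower (20% each) than in TCD hosts, near the background apart from the share lower than in GVHD hosts. Cdk6, a G1 kinase, was lower, at -1.20 ± 0.12 and -1.62 ± 0.13, and Ccnd3, cyclin D3, was higher by 0.76 ± 0.22 and 0.67 ± 0.24. Cdk4 was higher than in GVHD hosts by 0.25 ± 0.08 and Cdc25a, a phosphatase that activates CDKs, lower, at -0.57 ± 0.17. Against TCD hosts Ccne2, cyclin E2, was lower, at -1.30 ± 0.24 and Ccnd2, cyclin D2, higher by 1.22 ± 0.31. Without GVHD host 1 a single gene of this list was called against GVHD hosts, and without GVHD host 4, 3 were. Between GVHD and TCD host microglia 0 of the 108 tested genes of the 5 lists were called by limma, with 13 at an unadjusted p under 0.05, and in hippocampus 0 of 78, with 9. That unadjusted p was reached by 897 of all 13086 tested genes between the host groups and by 2449 of all 14404 in hippocampus. Without TCD host 3, 1 gene of the other cyclins and CDKs was called between the host groups.

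In whole hippocampus 12 of 24 mitosis members were listed, against 11 of 12 replication members and all 4 others. Bub1, Bub1b, Ccnb1, Ccnb2, Cdk1, Aurkb, Plk1, Kif20a, Kif23, Birc5, Ube2c, Cdca3 and Tk1 were not listed. The listed mitosis members were low, from 4 to 51 estimated reads in a library, and 8 mitosis, 10 replication and 4 other members reached 1 in 3 or more libraries and were tested. No member was called between GVHD and TCD hippocampus by limma, where 0.319% of all tested genes were higher and 0.160% lower. Of 22 tested members 1, Mcm4, had an unadjusted p under 0.05, as did 2449 of all 14404 tested genes. The median log2 fold change was 0.06 over the mitosis members and 0.06 over the replication members tested, against 0.005 over all tested genes.

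Mcm4 was 11.8, 11.9 and 11.1 in GVHD hippocampus 1 to 3 and 9.89, 7.48 and 8.99 in TCD hippocampus 1 to 3. The groups did not overlap, which held for 24.0% of all tested genes, and the log2 fold change was 0.37 ± 0.13 (adjusted p = 0.192). Aurka and Ccne1 also did not overlap, both with lower values in GVHD, at -0.29 ± 0.17 (adjusted p = 0.43) and -0.23 ± 0.12 (adjusted p = 0.373). Mki67 was 1.19, 1.48 and 1.47 in GVHD and 1.40, 2.85 and 1.53 in TCD hippocampus, with overlapping groups (-0.27 ± 0.22, adjusted p = 0.584). Pcna was 33.7, 37.1 and 38.7 in GVHD and 39.2, 35.9 and 29.4 in TCD hippocampus, and Stmn1, which neurons also express, had a mean of 199 ± 28.1 (SD, n = 3) and 219 ± 72.7 (n = 3). Cdkn1a ran from 6.92 to 8.86 in GVHD and from 7.15 to 11.4 in TCD hippocampus.

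Markers of immature neurons and neural progenitors summed to 149.8 to 179 in GVHD and 149.4 to 214 in TCD libraries (8 of 8 listed), and 0 of 7 tested were called by limma, with 2 at an unadjusted p under 0.05. Tbr1 alone held 67.2 to 127 of these sums. Markers of oligodendrocyte precursors summed to 309 to 321 in GVHD and 331 to 406 in TCD libraries (6 of 6 listed). Of these 6, 0 were called by limma, with 3 lower in GVHD and 0 higher at an unadjusted p under 0.05. Choroid plexus markers, by contrast, were higher in GVHD in 4 of 4, with sums of 943 to 3386 against 8.50 to 62.2. Their part in the hippocampal values was not tested. With quantile normalisation 14 of 22 members had a negative fold change, against 8 of 22 without it, and leaving out GVHD library 1 gave 11 of 22 and TCD library 3 11 of 21, so no direction is given for the hippocampus.

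**Figure D5:**
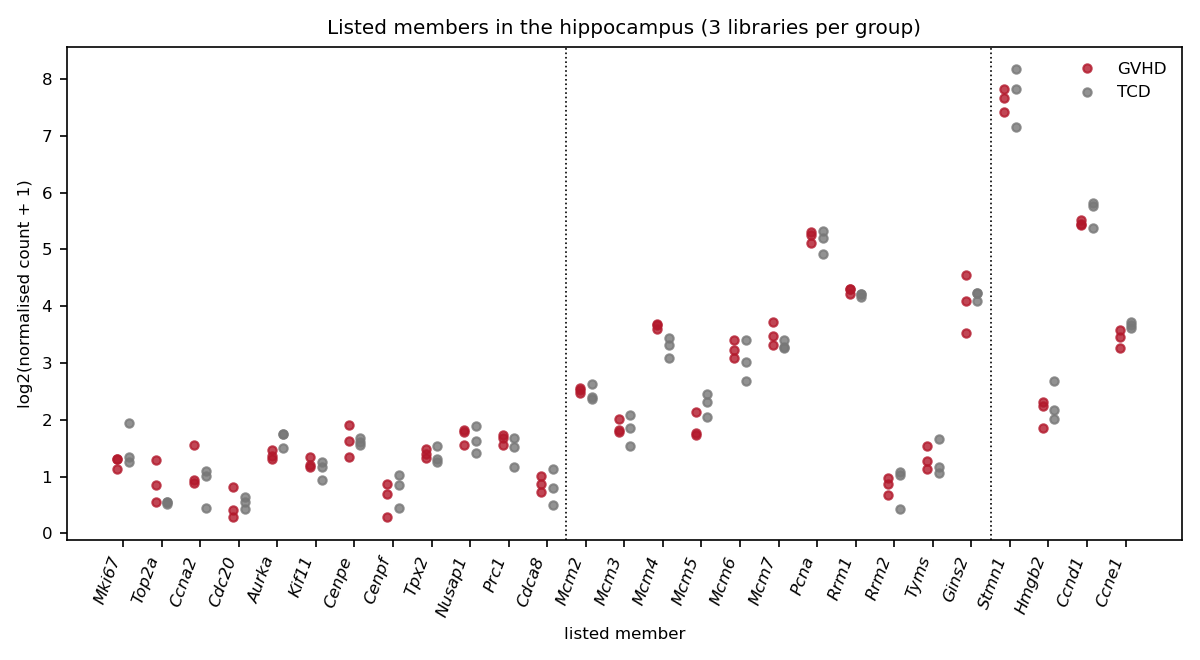
Log2(normalised count + 1) of the 27 listed genes in 3 GVHD and 3 TCD hippocampus libraries, with dotted lines between mitosis, replication and other members. Of the 22 genes tested, points of both groups overlap for all but Mcm4, Aurka and Ccne1, where 24.0% of all tested genes do not overlap, and mitosis members lie near the bottom of the axis.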

How the data were processed

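The authors deposited a signal per gene, normalised counts whose library totals were nearly equal. Per the submitters' processing notes, the tools were RSEM 1.2.30, STAR 2.5.2a and cutadapt 1.9, and the build was GRCm38. The scaling, the rule for listing genes and the annotation release are not given in the sources used here. The signal comes from fractional reads, so counts could not be recovered and no count test was run. Estimated reads are the library totals divided by the step between low values, within a tolerance of 0.02 of a step, and limit the precision of low members.

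Groups were taken from the titles. A gene was tested if it reached 1 in 3 or more libraries. Two-sided tests on log2(value + 1) were made by limma 3.58.1 (R 4.3.3) under a mean-variance trend, p-values were adjusted by Benjamini-Hochberg across every tested gene, and an adjusted p under 0.05 was a call. The sorted libraries shared 1 model with the API number of the titles as a covariate. Fold changes are log2 differences with standard errors. The model was tested on simulated data. The members, lists and rules were chosen with earlier results of these data known. Every member may be named. Values by library are given for members called in any comparison and for Mki67, Top2a, Cdk1, Ccnb1, Mcm2, Mcm5, Pcna, Rrm2, Tyms, Stmn1, Hmgb2, Ccnd1 and Ccne1, in full or as ranges for sorted cells and, for hippocampus, in the plot, with a few in the text. Of each further list up to 4 called genes with the smallest p are named, and Cdkn1a always. Symbols came from a GENCODE annotation of GRCm38, where 192 hippocampus and 213 sorted-cell identifiers had no match.

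The replicate numbers were checked by correlating deviations from the group means. For the numbers in the descriptions, the correlations between donor and GVHD host libraries were 0.39, 0.36, 0.17 and 0.28, and for the numbers in the titles, those between donor and TCD host libraries were 0.58, 0.31 and 0.41. Both were used as replicate blocks in alternatives, which kept only libraries whose number occurred in both groups compared. Donors and TCD hosts came from different mice, so there the title numbers do not pair cells of the same mouse. By description number that comparison gave 0.58, 0.16 and -0.52. The deviations were not adjusted for the API number. Alternatives changed the pseudocount, the filter, the scaling, the trend, the covariate, the libraries and the block. Sequences are from RefSeq.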

Additional observations from a re-analysis of the deposited data

Results flagged for a closer look

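Among 80 combinations of a member with the donor or the GVHD host group, 3 had a single library far from the rest of its group, judged by its gap to the nearest library relative to the range of the group on the log2 scale. Chance sets apart about 1 in 20 groups. Ccnb1 was 1.59 in GVHD host 4, where the other GVHD hosts lay between 6.20 and 7.48. Aurka was 1.48 in GVHD host 4, where the others lay between 3.47 and 3.95. Tk1 was 10.5 in GVHD host 3, where the others lay between 11.9 and 12.2. GVHD host 4 held the fewest estimated reads of its group, 8455353, and 1 of 24 mitosis members above its mean over the sorted libraries.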

How the results depend on the processing

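No called member reversed its direction in any alternative tried. Of the 10 members called between donors and GVHD hosts 5 were called in every alternative (Bub1b, Cenpf, Mcm6, Tyms and Hmgb2), and of the 14 between donors and TCD hosts 7 (Bub1, Cdk1, Cenpf, Prc1, Tyms, Stmn1 and Hmgb2, where Bub1 was not tested under the filter of 5). Leaving out 1 library gave 6 to 12 calls between donors and GVHD hosts, 8 to 16 between donors and TCD hosts, and 0 in the other comparisons. In those fits 16.5% to 21.3% of all tested genes were higher and 17.1% to 20.3% lower in donors than in GVHD hosts. Against TCD hosts these shares were 14.3% to 20.8% and 14.3% to 20.3%. With API_197 libraries only, 8 calls were made between donors and TCD hosts and 7 between donors and GVHD hosts. The title number as a replicate block gave 0 calls in hippocampus, 7 between donors and GVHD hosts, 0 between GVHD and TCD hosts and 11 between donors and TCD hosts, and the description number 13 between donors and GVHD hosts. The title numbers did not pair hippocampus libraries (correlations of -0.16, -0.04 and -0.18), nor donors with GVHD hosts (0.39, 0.17, -0.02 and 0.02), nor GVHD with TCD hosts (0.22, -0.02 and -0.02). In hippocampus the mitosis median became -0.07 (-0.0728) and the replication median -0.01 (-0.0058) with quantile normalisation, and the replication median 0.13 with the filter of 5, which left no mitosis member to test. Leaving out 1 library moved these medians between 0.01 (0.0054) and 0.10 for mitosis and between -0.02 (-0.0174) and 0.17 for replication members. The cause of these shifts was not tested. Between donors and TCD hosts the mitosis median ran from -0.96 to -0.44 over the 20 alternatives. Depth limits the low members, with 4 estimated reads behind the lowest sorted and hippocampal values.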
